A study of Mus musculus with 2 samples.

Results

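The genes examined are 9 members of the interferon signaling chain at and just below the cell surface. They are the receptor chains Ifnar1, Ifnar2, Ifngr1 and Ifngr2, the Janus kinases Jak1, Jak2 and Tyk2, and the feedback inhibitors Socs1 and Socs3. They were taken by symbol from 27998 genes, and all 9 had transcripts in both libraries. The choice was made with earlier results of these data known. The libraries were 10x Genomics 3′ single-cell libraries of tumor mononuclear phagocytes (TMPs) from C57Bl/6 mice bearing B16, a transplantable mouse melanoma. Phagocytes that carried the surface proteins MerTk and CD64 were sorted from the tumors. There was 1 library from Fcmr+/+ mice and 1 from Fcmr-/- mice, which lack Fcmr (Toso), a receptor that binds IgM. The age of the mice and the number that contributed to each library are not given in the sources used here. No spread between mice can be measured from 1 library of each genotype, so no genotypes were tested against each other, and all intervals below are 95% intervals that cover counting error only.

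Type I interferons bind a receptor of the Ifnar1 and Ifnar2 chains, which carry the kinases Tyk2 and Jak1. Interferon-γ, the type II interferon, binds a receptor of Ifngr1 and Ifngr2 chains, which carry Jak1 and Jak2. The kinases phosphorylate STAT proteins, and the target genes include Socs1 and Socs3, whose products shut the pathway down again, SOCS1 chiefly at interferon receptors and SOCS3 chiefly at receptors that use gp130. In macrophages the type II arm drives antigen presentation and killing functions, and the type I arm drives antiviral genes.

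Of the 9 genes, 3 lie together on mouse chromosome 16 of GRCm38, all on the plus strand, within 193 kb. Ifnar2 spans 91372783 to 91405589, Ifnar1 spans 91485238 to 91507441 and Ifngr2 spans 91547072 to 91565623. Socs1 lies on the same chromosome, from 10782240 to 10785536 on the minus strand, and Socs3 lies on chromosome 11, from 117966079 to 117970047 on the minus strand. The promoters of these SOCS genes are shown because much of what follows concerns Socs1 and Socs3, whose levels followed different groups of cells. Each covers 250 bases before and 50 bases after the RefSeq start in GRCm38.p6, read 5′ to 3′ along the gene. For Socs3 this window lies inside the gene span given above, which comes from GENCODE and places the start farther upstream. Positions below are from the RefSeq start. Capitals mark every match, on either strand, to TTCNNNGAA, the spacing of a STAT site, or AANNGAAA, the core of an interferon regulatory factor site.
Socs1, chr16:10785487-10785786, minus strand: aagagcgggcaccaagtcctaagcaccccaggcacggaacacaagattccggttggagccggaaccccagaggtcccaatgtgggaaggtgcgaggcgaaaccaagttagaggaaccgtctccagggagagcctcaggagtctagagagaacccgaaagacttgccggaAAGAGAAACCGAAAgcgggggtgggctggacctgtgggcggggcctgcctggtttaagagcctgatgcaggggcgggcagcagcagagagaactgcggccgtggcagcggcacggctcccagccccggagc
Socs3, chr11:117969317-117969616, minus strand: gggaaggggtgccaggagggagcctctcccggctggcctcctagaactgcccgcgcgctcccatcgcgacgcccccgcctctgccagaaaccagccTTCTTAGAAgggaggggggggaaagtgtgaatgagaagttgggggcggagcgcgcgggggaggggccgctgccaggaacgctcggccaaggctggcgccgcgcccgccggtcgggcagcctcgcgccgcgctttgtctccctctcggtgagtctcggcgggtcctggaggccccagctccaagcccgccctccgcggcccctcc
The Socs1 promoter held 2 overlapping matches to AANNGAAA, at positions -81 to -74 and -75 to -68 from the start, and no match to TTCNNNGAA. The Socs3 promoter held the reverse, with 1 match to TTCNNNGAA, TTCTTAGAA at -154 to -146, and none to AANNGAAA. Ifnar1 held TTCACGGAA at -5 to 3, Ifnar2 held TTCCTGGAA at -214 to -206, and the other 5 promoters held neither motif in this window. Of 32817 promoters of that length in the same table, 8.29% held TTCNNNGAA and 23.9% held AANNGAAA. A match describes letters only.

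After the study's limits on cells, 6352 Fcmr+/+ cells with 128408544 UMIs (unique molecular identifiers, 1 per captured transcript) and 7999 Fcmr-/- cells with 124630621 UMIs remained. Median depth was 17973.5 UMIs per cell in the Fcmr+/+ library and 12911 in the Fcmr-/- library. All 9 macrophage markers, Mertk and the CD64 gene Fcgr1 among them, were present in both libraries. They summed to 9931 CPM (UMIs per 1000000 UMIs of the library) in the Fcmr+/+ library and 9768 CPM in the Fcmr-/- library, and Fcmr had 7 and 6 UMIs, too few to check the genotypes. The libraries shared 73 cell barcodes, 1.14% of those in the Fcmr+/+ and 0.911% of those in the Fcmr-/- library. Transcripts of T and NK cells (5 genes found) summed to 0.864 CPM in 15 cells with a UMI in the Fcmr+/+ library and to 14.5 CPM in 105 cells in the Fcmr-/- library.

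Of the 9 genes, 1 stood apart between the libraries. Socs1 was 1.85-fold higher in Fcmr-/- TMPs, Socs3, Ifngr1 and Ifnar2 were lower by up to a fold of 0.802, and the other receptors and all kinases differed by a fold of 1.03 to 1.14. Levels are CPM of summed UMIs, and a gene was counted as past the fold limit when the log2 ratio of CPM + 1 was at least 0.5 in size (1.41-fold). Only Socs1 passed it, 1 of 9 genes, where 5.8% of the 8701 genes with at least 5 CPM in either library did. The median log2 ratio was 0.06 over the 9 genes and 0.00 over all genes tested.

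Among the receptor chains, Ifnar1 had 94.2 CPM (interval 92.5 to 95.9) in the Fcmr+/+ library and 107 CPM (106 to 109) in the Fcmr-/- library, 1.14-fold higher (1.11 to 1.17). Its partner Ifnar2 went the other way, from 123 CPM (121 to 125) to 108 CPM (107 to 110.2), a fold of 0.878 (0.858 to 0.899). The ligand-binding chain of the type II receptor, Ifngr1, also had a lower level in Fcmr-/- cells, 107 CPM (105 to 109) against 126 CPM (124 to 128), a fold of 0.846 (0.827 to 0.866). Ifngr2, the accessory chain, had 102 CPM (100.2 to 104) and 105 CPM (104 to 107), a fold of 1.03 (1.01 to 1.06). Each receptor thus had 1 chain at a lower and 1 at a slightly higher level in the Fcmr-/- library, and no chain reached the fold limit. In cells drawn down to 5000 UMIs each, which left out 0 cells, Ifnar1 was seen in 39.6% of Fcmr+/+ and 42.5% of Fcmr-/- cells and Ifngr1 in 45.1% and 40.6%. Without that step the depth of the libraries reversed the order for Ifnar1, which had a UMI in 77.1% of Fcmr+/+ and 72.6% of Fcmr-/- cells.

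No kinase reached the fold limit. Jak1, used by both receptors, had 138 CPM (136 to 140.3) in the Fcmr+/+ and 144 CPM (142 to 146) in the Fcmr-/- library. Jak2, of the type II receptor, had 20.6 CPM (19.8 to 21.4) and 22.3 CPM (21.5 to 23.2), a fold of 1.08 (1.03 to 1.14). Tyk2, of the type I receptor, had 14.6 CPM (13.9 to 15.2) and 16.3 CPM (15.6 to 17.0), a fold of 1.12 (1.05 to 1.19). All 3 intervals of the fold lay above 1 and all 3 genes kept that direction under each alternative computed. Their log2 ratios were 0.057, 0.110 and 0.151, beside a median size of 0.117 over all genes tested. The share of all genes with an interval clear of 1 was not computed.

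The SOCS genes moved in opposite directions. Socs1 had 8.64 CPM (8.14 to 9.17) in the Fcmr+/+ library and 16.0 CPM (15.3 to 16.7) in the Fcmr-/- library, a fold of 1.85 (1.72 to 1.99), which was higher than that of 98.7% of the genes tested. Socs3 had 189 CPM (187 to 191) and 151 CPM (149 to 154), a fold of 0.802 (0.787 to 0.817). At 5000 UMIs per cell, 4.41% (3.92 to 4.94) of Fcmr+/+ and 5.98% (5.47 to 6.52) of Fcmr-/- cells had a Socs1 UMI, and 0.488% and 1.40% had at least 2. Socs3 was seen in 52.9% (51.6 to 54.1) and 45.2% (44.1 to 46.3) of cells. No cell type that should lack these genes was present to measure free RNA, so its part in the shares was not tested.

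Transcripts of other cell types differed between the libraries too. Without the cells that held a T or NK marker UMI, Socs1 had 8.60 and 16.0 CPM. Its fold was then 1.87 (1.73 to 2.01), against 1.85 in all cells. Neutrophil transcripts were also higher in the Fcmr-/- library, 97.6 against 40.2 CPM, most of them from Mmp8 and S100a8, while Ly6g had 0 and 3 UMIs, and melanoma transcripts were 63.6 against 40.2 CPM. B cell transcripts were 10.4 against 12.4 CPM, most of them from Cd79b, and dendritic cell transcripts were 13.1 against 8.09 CPM, in 297 Fcmr-/- and 208 Fcmr+/+ cells with a UMI. When every cell with a UMI of a T or NK, B, neutrophil or melanoma marker was left out, 2169 Fcmr+/+ and 2388 Fcmr-/- cells remained and Socs1 had 10.1 and 14.9 CPM, a fold of 1.47 (1.28 to 1.7). Cells with a dendritic cell UMI were not removed in that step, and the part of these cells in the result was not tested. Deeper cells are more likely to hold a marker UMI, so the cells kept may also differ in depth. The part of depth in this fold was not tested.

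**Figure D1:**
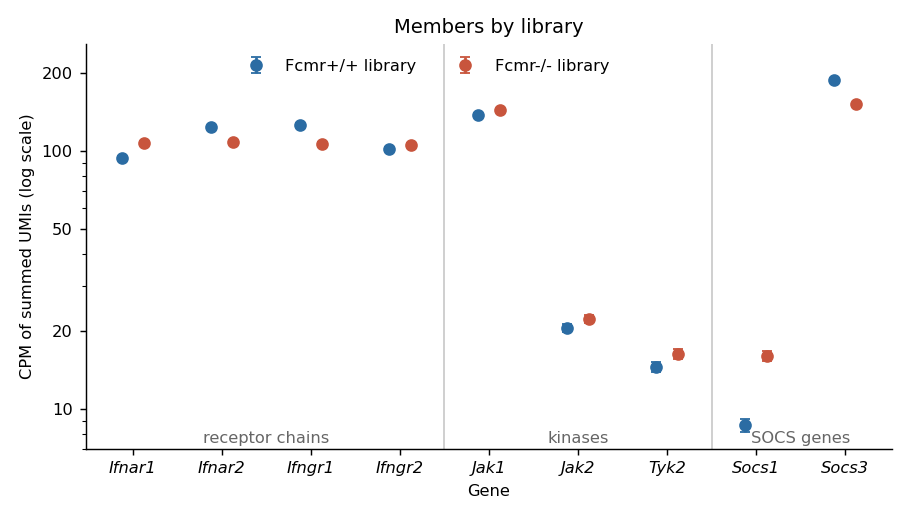
Level of each of the 9 genes in the Fcmr+/+ (blue) and Fcmr-/- (red) library, as CPM of summed UMIs on a log axis; bars are exact 95% Poisson intervals. Socs1 is the gene whose points lie farthest apart, at 8.64 and 16.0 CPM.

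To see in which cells the genes were used, both libraries were clustered together on 1339 variable genes. Ifngr1, Socs1 and Socs3 had been among these and were left out, so that no member shaped the 10 clusters. Clusters are named here by number and leading genes. The ones that matter most for the SOCS genes are cluster 1 (Iigp1, Serpina3g, Cxcl9, Gbp4, Gbp2), cluster 5 (Cenpf, Nusap1, Prc1, Pbk, Hist1h1b) and cluster 8 (Rsad2, Ifit1bl1, Cmpk2, Ifit3, Ifit2). Fcmr-/- cells made up 96.4% of cluster 1, which held only 88 Fcmr+/+ cells and so may reflect that library as much as a state, 51.0% of cluster 5 and 74.9% of cluster 8. The clusters differed in depth too, with medians of 8760.5 to 26285 UMIs per cell.

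Socs1 had the widest range of all. It was highest in cluster 8, whose leading genes are antiviral type I response genes, with 66.5 CPM (57.4 to 76.7) in Fcmr+/+ and 46.0 CPM (41.2 to 51.2) in Fcmr-/- cells. It was lowest in cluster 6 (Tfrc, Cnrip1, Ednrb, Gas6, Npl), with 4.20 CPM (3.47 to 5.04) and 3.39 CPM (2.1 to 5.18), so that the range was 15.8-fold (12.5 to 20.1) and 13.6-fold (8.73 to 22.2). Between these ends most clusters were close, and in the order of levels 8 of 9 neighboring pairs in Fcmr+/+ and 7 of 9 in Fcmr-/- cells had overlapping intervals. In Fcmr+/+ cells the next cluster below cluster 8 was cluster 3 (Hbb-bs, Inhba, Nos2, Sdc1, Adm) with 15.3 CPM, and in Fcmr-/- cells it was cluster 1 with 21.8 CPM.

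Socs3 had another distribution. In Fcmr+/+ cells it had 258 to 278 CPM in clusters 2, 3, 4 and 8 and 126 to 152 CPM in the other 6, a gap with no cluster in between. Clusters 2 (Ccl17, Il1r2, Ifitm1, Ear2, Ltc4s) and 4 (Cxcl3, Ppbp, Ccl24, Areg, Il1b) stood in this high group although their Socs1 levels, 11.5 and 7.86 CPM, were far below that of cluster 8. In Fcmr-/- cells the same 4 clusters had 223 to 271 CPM, cluster 1 had 135 CPM, and the other 5 had 64.8 to 94.7 CPM.

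The receptor chains followed different clusters. Ifnar1 and Ifnar2 were high in cluster 8, with 133 and 182 CPM in Fcmr+/+ cells, and Ifnar2 was about as high in cluster 3, with 160 CPM in both libraries. Ifngr1 was instead highest in cluster 2, with 179 CPM (174 to 185) in Fcmr+/+ and 157 CPM (149.9 to 164) in Fcmr-/- cells, followed by cluster 7 (Fbxo32, Acp5, Itgax, Apoe, Atp6v0d2), with 176 and 126 CPM. It was lowest in cluster 10 (Adm, Pdgfa, Rassf8, Bhlhe41, Dct), with 79.1 and 59.0 CPM, a range of 2.27-fold (2.1 to 2.45) and 2.66-fold (2.27 to 3.12). Cluster 1, which leads with interferon-γ response genes, had 114 and 107 CPM of Ifngr1, close to the level of each whole library. Ifngr2 varied over clusters by 1.34-fold (1.23 to 1.46) in Fcmr+/+ and by 1.40-fold (1.28 to 1.54) in Fcmr-/- cells. All 9 of its neighboring pairs overlapped in both libraries, which does not show that the ends of the order were level.

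Of the kinases, Jak2 was highest in cluster 8, with 33.6 CPM (27.2 to 41.0) in Fcmr+/+ and 40.7 CPM (36.2 to 45.6) in Fcmr-/- cells, and second in cluster 2. Tyk2 was highest in cluster 2, with 18.2 and 21.9 CPM, and lowest in cluster 3, with 8.96 and 9.16 CPM, a range of 2.03-fold (1.58 to 2.63) and 2.40-fold (1.86 to 3.13). Jak1 was nearly level, with a range of 1.37-fold in Fcmr+/+ and 1.22-fold in Fcmr-/- cells. Cells of cluster 3 thus had high Ifnar2 and the lowest Tyk2 among the clusters, 2 parts of the same receptor.

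**Figure D2:**
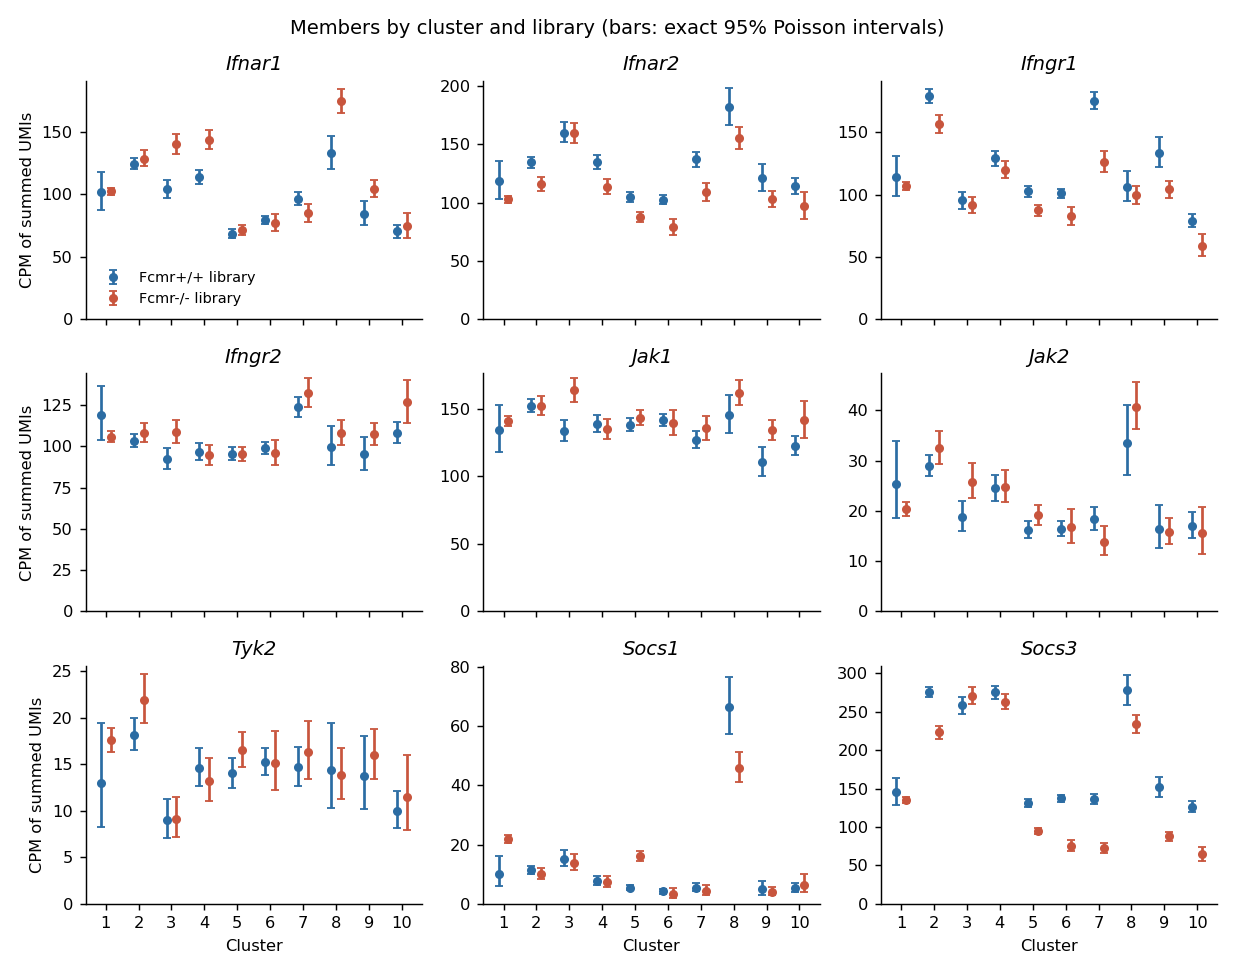
Level of each gene in clusters 1 to 10 in the Fcmr+/+ (blue) and Fcmr-/- (red) library, as CPM of summed UMIs with exact 95% Poisson intervals. Socs1 stands out in cluster 8 at 66.5 and 46.0 CPM, Socs3 is high in clusters 2, 3, 4 and 8, and Jak1 and Ifngr2 are nearly level.

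Comparing Fcmr-/- and Fcmr+/+ cells within clusters removes the difference in the shares of clusters between the libraries but not differences inside a cluster. In cluster 8 neutrophil transcripts summed to 53.5 CPM in Fcmr+/+ and 203 CPM in Fcmr-/- cells. Melanoma transcripts in cluster 10 summed to 81.3 and 376 CPM. Of 90 pairs of gene and cluster, 88 of them over 5 CPM, 7 were past the fold limit, 2 higher and 5 lower in Fcmr-/- cells, where 10.5% of all pairs of gene and cluster over 5 CPM were. The 7 pairs were 7.78% of the 90, not above the share over all genes, so their count is no result about the members. All 7 pairs were of SOCS genes. Ifnar2 and Ifngr1 were lower in Fcmr-/- cells in 10 of 10 clusters, with intervals of the fold below 1 in 9 and 6 of them, but in none past the limit. For Ifngr1 the fold went from 0.720 (0.665 to 0.779) in cluster 7 to 0.958 (0.866 to 1.06) in cluster 3. Ifnar1 was higher in 8 of 10 clusters, most in cluster 3, where it had 104 CPM in Fcmr+/+ and 140 CPM in Fcmr-/- cells, a fold of 1.35 (1.23 to 1.47), and in cluster 8, with 133 and 175 CPM. Of the kinases, Jak1 was higher in Fcmr-/- cells in 8, Tyk2 in 7 and Jak2 in 6 of 10 clusters. Jak2 had an interval above 1 in 2 clusters and below 1 in cluster 7, at 0.758 (0.590 to 0.966). For counts of clusters by direction or by interval, the share over all genes was not computed. These counts are therefore no result about the members.

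Socs3 was lower in Fcmr-/- cells in 9 of 10 clusters, and past the limit in clusters 6, 7, 9 (Mfge8, Plpp3, Spp1, Npy, Ctsk) and 10. These are among the clusters that had little Socs3 in either library. Of all genes over 5 CPM, 4.89%, 10.1%, 15.8% and 12.9% were past the limit in these clusters, in either direction. In cluster 10 Socs3 had 126 CPM in Fcmr+/+ and 64.8 CPM in Fcmr-/- cells, a fold of 0.512 (0.438 to 0.597). In cluster 7 it had 137 and 72.2 CPM, a fold of 0.529 (0.477 to 0.585). Among the clusters where it was high, the folds were 1.05 (0.988 to 1.11) in cluster 3 and 0.955 (0.908 to 1.00) in cluster 4. They were 0.810 (0.774 to 0.846) in cluster 2 and 0.842 (0.774 to 0.918) in cluster 8.

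Socs1 was higher in Fcmr-/- cells in 3 and lower in 7 of 10 clusters, although it was higher in the whole library. It was past the limit upward in clusters 1 and 5 and downward in cluster 8. Of all genes over 5 CPM, 12.3% were past it in cluster 1, 6.24% in cluster 5 and 19.6% in cluster 8, in either direction. In cluster 5, whose leading genes belong to the cell cycle, Socs1 had 5.43 CPM (4.50 to 6.50) in Fcmr+/+ and 16.1 CPM (14.4 to 18.0) in Fcmr-/- cells, a fold of 2.96 (2.39 to 3.69). In cluster 1 it had 10.2 CPM (6.02 to 16.1), from 18 UMIs, and 21.8 CPM (20.5 to 23.3), a fold of 2.15 (1.35 to 3.64). In cluster 8 the fold was 0.691 (0.577 to 0.830), and in the other 7 clusters each interval of the fold held 1. Other lists moved along in cluster 5: type II response genes summed to 209.8 CPM in its Fcmr+/+ and 1054 CPM in its Fcmr-/- cells, MHC class II genes to 2590 and 5414 CPM, and T and NK transcripts to 0.0457 and 58.7 CPM. Without cells with a T or NK UMI, Socs1 in cluster 5 was 5.45 CPM in Fcmr+/+ and 16.3 CPM in Fcmr-/- cells.

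The Socs1 difference was smaller once both libraries were given the same share of each cluster. Cluster 1 held 1.38% of all UMIs of the Fcmr+/+ library and 34.0% of those of the Fcmr-/- library. It gave 1.62% and 46.4% of their Socs1 UMIs. Cluster 8, with 2.23% and 5.81% of all UMIs, gave 17.1% and 16.7% of the Socs1 UMIs. At the mean makeup of the libraries, Socs1 was 10.3 CPM in Fcmr+/+ and 12.8 CPM in Fcmr-/- cells, a fold of 1.24, and 0 of 9 genes passed the limit, against 2.62% of all genes. Without cluster 1 the Socs1 fold was 1.5 (1.38 to 1.64), and without clusters 1 and 5, a choice made after their values were seen, it was 1.29 (1.17 to 1.42). Socs3 had a fold of 0.799 at the mean makeup against 0.802 as measured, but other makeups gave other values. It had 189 CPM in Fcmr+/+ and 144 CPM in Fcmr-/- cells at the Fcmr+/+ makeup, and 181 and 151 CPM at the Fcmr-/- makeup. Without clusters 1 and 5 the Socs3 fold was 0.892 (0.871 to 0.912).

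**Figure D3:**
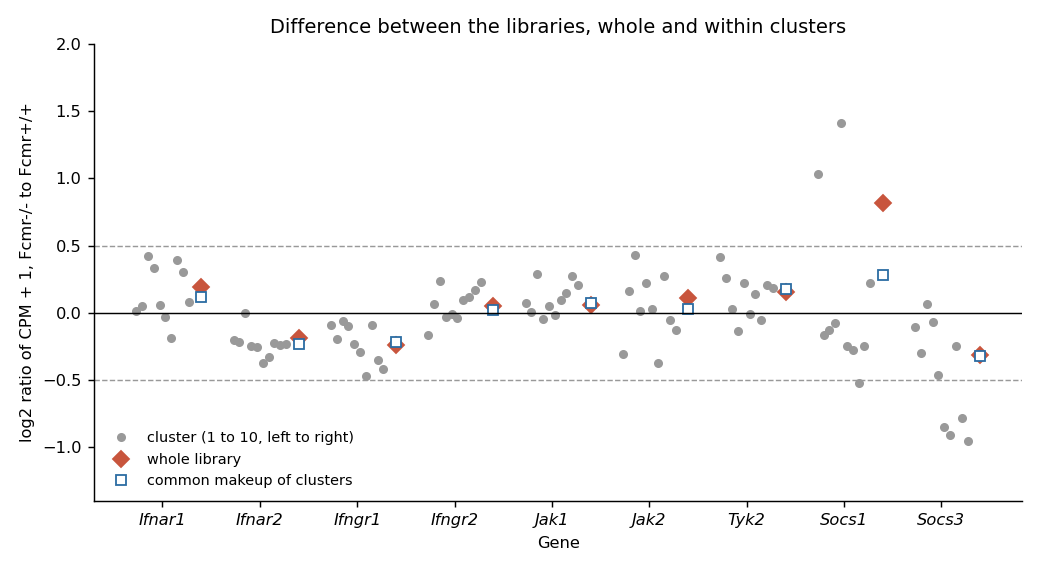
Log2 ratio of CPM + 1 of Fcmr-/- to Fcmr+/+ cells for each gene, in each cluster (gray, clusters 1 to 10 from left to right), in the whole library (red diamond) and at a common makeup of clusters (open square); dashed lines mark the fold limit of 0.5. The Socs1 whole-library value of 0.82 becomes 0.28 at the common makeup, while that of Socs3 stays at -0.32.

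Cells were next ranked by the summed UMIs of response genes, none of them a member, in the cell thinned to 5000 UMIs. They were split into a lowest, a middle and a highest group at limits common to both libraries, set to divide all cells as evenly as ties allow, and the highest was compared with the lowest group within each library. By the type I response list (29 genes found, such as Ifit1, Isg15 and Rsad2), 1 of 9 genes passed the fold limit in each library, where 4.98% of all genes did in Fcmr+/+ and 8.6% in Fcmr-/- cells. That gene was Socs1. It had 5.66 CPM (5.07 to 6.31) in the lowest, 7.67 in the middle and 16.1 CPM (14.7 to 17.7) in the highest group of Fcmr+/+ cells, and 7.04 CPM (6.23 to 7.92), 13.6 and 26.3 CPM (24.8 to 27.9) in those of Fcmr-/- cells. The fold from lowest to highest group was 2.85 (2.47 to 3.30) and 3.73 (3.27 to 4.27), while the other 8 genes lay between 0.960 and 1.41.

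By the type II response list (20 genes, such as Cxcl9, Iigp1 and Gbp2), Socs1 was again the only one of 9 past the limit in either library, beside 3.55% of all genes in Fcmr+/+ and 6% in Fcmr-/- cells. It went from 6.35 CPM (5.83 to 6.89) in the lowest to 19.6 CPM (17.6 to 21.7) in the highest group of Fcmr+/+ cells, 3.08-fold (2.70 to 3.52), and from 5.74 CPM (5.08 to 6.45) to 26.3 CPM (25.1 to 27.7) in Fcmr-/- cells, 4.59-fold (4.04 to 5.23). The type II receptor chains were level across these groups, with Ifngr1 at 1.06-fold in Fcmr+/+ and 0.979-fold in Fcmr-/- cells and Ifngr2 at 1.05- and 0.995-fold. The highest group held 16.0% of Fcmr+/+ and 44.2% of Fcmr-/- cells. In cells of the lowest group Socs1 differed little between the libraries, with a fold of Fcmr-/- to Fcmr+/+ of 0.904 (0.780 to 1.05), as in the middle group, with 0.952 (0.751 to 1.2). In the lowest groups of the other lists Socs1 was higher in Fcmr-/- cells. Its fold was 1.24 (1.06 to 1.46) by type I genes. By the lists given below it was 2.66 (2.32 to 3.06) for hypoxia and 2.59 (2.22 to 3.03) for early genes. For inflammatory genes it was 2.44 (2.13 to 2.81). In the highest type II group the fold was 1.35 (1.2 to 1.51). The score values there ran from 3 to 66 UMIs in Fcmr+/+ and from 3 to 134 UMIs in Fcmr-/- cells, so the groups were not matched in the height of the response, and 2851 Fcmr+/+ and 2731 Fcmr-/- cells lay at one of the limits of 1 and 2 UMIs.

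Socs3 followed other lists. By inflammatory genes (12, such as Il1b, Cxcl2 and Tnf), it had 117 CPM (113 to 119.8) in the lowest and 282 CPM (276 to 287) in the highest group of Fcmr+/+ cells, 2.42-fold (2.34 to 2.50), and 79.5 CPM (76.8 to 82.1) and 262 CPM (256 to 267) in those of Fcmr-/- cells, 3.29-fold (3.17 to 3.42). In each library 2 of 9 genes passed the limit, Socs3 with Socs1 at 1.80-fold (1.55 to 2.1) in Fcmr+/+ and with Ifnar1 at 1.60-fold (1.54 to 1.67) in Fcmr-/- cells, beside 7.01% and 16.1% of all genes. Socs1 in Fcmr-/- cells had a fold of 0.966 (0.863 to 1.08) here, and the difference from Fcmr+/+ cells was not tested. Across the groups the gap in Socs3 between the libraries narrowed, from a fold of Fcmr-/- to Fcmr+/+ of 0.682 (0.653 to 0.712) in the lowest to 0.929 (0.904 to 0.955) in the highest group. Of the other lists only the type II list went the other way, from 0.787 (0.765 to 0.810) to 0.680 (0.656 to 0.705). The highest inflammatory groups were not matched. The list summed to 17519 CPM in Fcmr+/+ and 19217 CPM in Fcmr-/- cells there, at median depths of 16612.5 and 10841.5 UMIs.

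By early genes (21, such as Fos, Jun and Egr1, which also rise when tissue is dissociated), both SOCS genes passed the limit, 2 of 9 in each library, beside 6.83% and 7.12% of all genes. Socs3 was 1.82-fold (1.77 to 1.88) and 2.05-fold (1.98 to 2.13) higher in the highest group, and Socs1 was 2.49-fold (2.12 to 2.92) and 1.47-fold (1.32 to 1.65) higher. By hypoxia genes (18, such as Hilpda, Bnip3 and Slc2a1), 2 genes passed in Fcmr+/+ and 3 in Fcmr-/- cells, where 30.2% and 31% of all genes did, so these counts of 9 are close to the background and are no result about the members. Socs3 was 1.63-fold (1.57 to 1.68) and 2.19-fold (2.11 to 2.28) higher in the highest group. Socs1 was 2.06-fold (1.76 to 2.40) higher there in Fcmr+/+ cells, past the limit, and 1.13-fold (1.01 to 1.26) higher in Fcmr-/- cells. Tyk2 was lower there in both libraries, 0.742-fold (0.652 to 0.843) in Fcmr+/+ and 0.683-fold (0.604 to 0.771), past the limit, in Fcmr-/- cells, and Ifnar1 was 1.14-fold (1.09 to 1.2) and 1.52-fold (1.46 to 1.59) higher. Cells of the highest hypoxia group were shallower, with a median of 13508 against 19676 UMIs in Fcmr+/+ and 9617 against 15054 in Fcmr-/- cells. Depth moved with most of the genes: from the shallowest to the deepest of 3 groups of cells Socs3 had a fold of 0.550 in Fcmr+/+ and 0.530 in Fcmr-/- cells, and Ifngr1 of 0.642 and 0.699, whereas Tyk2 had 1.10 and 1.04. Socs1 had the lowest such fold in Fcmr+/+ cells, 0.459 (0.398 to 0.530), and 0.810 (0.721 to 0.912) in Fcmr-/- cells. Its level was 15.5 CPM in the shallowest and 7.09 CPM in the deepest group of Fcmr+/+ cells, and 19.3 and 15.6 CPM in those of Fcmr-/- cells. These groups were set within each library, at different depths, so the genotypes are not matched in them. The part of depth in these results was not tested beyond the thinning of the scores.

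**Figure D4:**
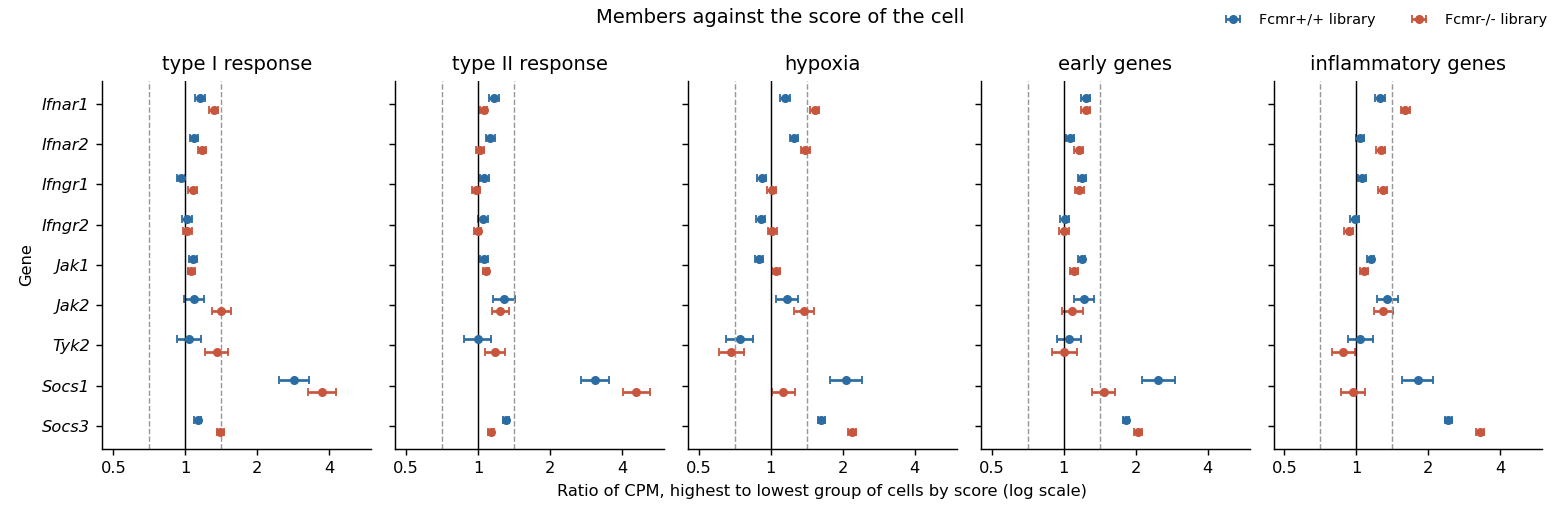
Ratio of CPM in the highest to the lowest group of cells by each of 5 scores, for each gene in the Fcmr+/+ (blue) and Fcmr-/- (red) library, on a log axis with exact 95% intervals; dashed lines mark a 1.41-fold change. Socs1 lies at 2.85 to 4.59 for the interferon lists, and Socs3 at 2.42 and 3.29 for inflammatory genes.

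Transcripts of the 2 chains of a receptor were found in the same cells about as often as their single shares imply. At 5000 UMIs per cell, Ifnar1 and Ifnar2 were both seen in 19.2% of Fcmr+/+ cells, where the product of their shares was 18.7%, a ratio of 1.03 (0.975 to 1.08), and in 18.9% of Fcmr-/- cells, a ratio of 1.04 (0.989 to 1.08). For Ifngr1 and Ifngr2 the ratios were 0.994 (0.941 to 1.05) and 1.02 (0.969 to 1.07). These intervals are those of the share of cells with both genes, with the product taken as fixed. They are not the error of the ratio, and whether a ratio differs from 1 was not tested. Over all 36 pairs the median ratio was 1.02 in Fcmr+/+ and 1.03 in Fcmr-/- cells. The interval lay above 1 in 5 and 6 pairs and below 1 in 0 and 1. Pairs of other genes were not counted, so these counts are no result about the members.

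Most pairs with an interval above 1 held Socs3. It was seen with Ifnar1 1.11 times (1.06 to 1.16) as often as implied in Fcmr+/+ and 1.09 times (1.04 to 1.13) in Fcmr-/- cells. With Jak2 the ratios were 1.17 (1.06 to 1.29) and 1.13 (1.03 to 1.24), with Socs1 1.18 (1.02 to 1.37) and 1.2 (1.06 to 1.35), and with Ifngr1 1.06 (1.02 to 1.11) and 1.05 (1.00 to 1.10). The remaining pairs above 1 were Ifngr1 with Jak2 in Fcmr+/+ cells and Ifnar2 with Socs3 and Jak2 with Socs1 in Fcmr-/- cells. The pair below 1 was Ifngr1 with Socs1 in Fcmr-/- cells, at 0.809 (0.689 to 0.944), while in Fcmr+/+ cells that interval held 1. Pearson correlations of thinned UMIs over cells stayed between -0.026 and 0.095, so sparse that they are given as a description only. All 4 parts of the type I receptor complex (Ifnar1, Ifnar2, Jak1 and Tyk2) were seen together in 30 Fcmr+/+ cells, 0.472% (0.319 to 0.674). In the Fcmr-/- library they were seen together in 69 cells, 0.863% (0.672 to 1.09). The products of the single shares were 0.634% and 0.703%. All 4 of the type II complex (Ifngr1, Ifngr2, Jak1 and Jak2) were seen in 1.09% (0.846 to 1.37) and 1.03% (0.816 to 1.27) of cells. Its products were 0.863% and 0.935%, and for both complexes each product lay inside its interval. The median cell showed 1 of the 4 parts of either complex at this depth, which limits what can be said of single cells.

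**Figure D5:**
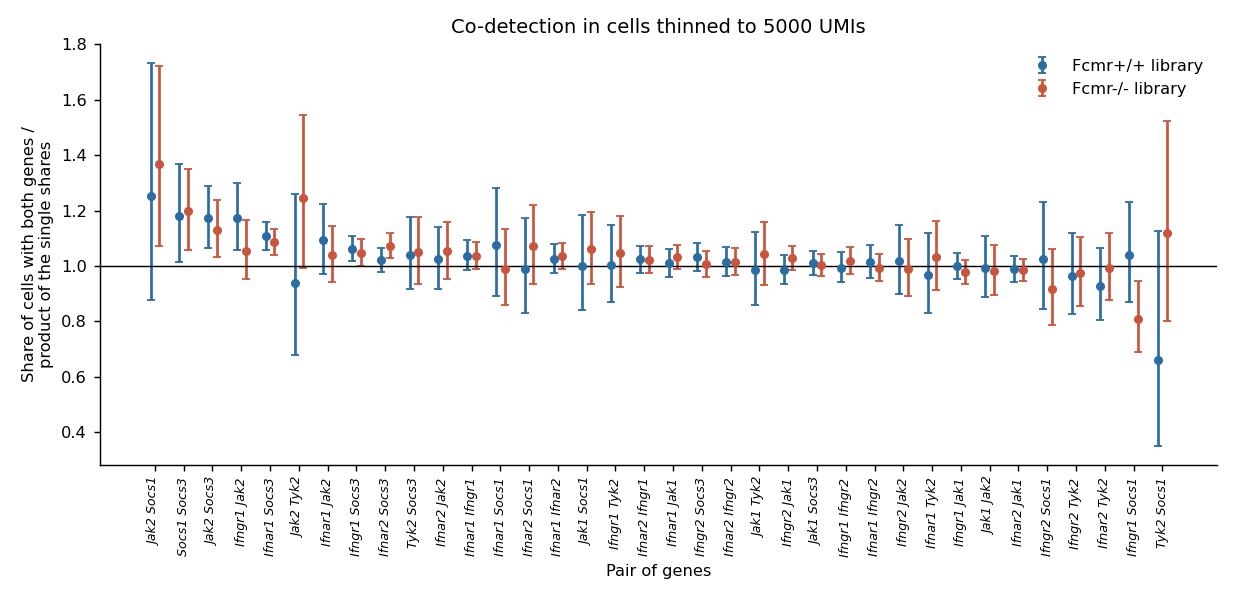
Share of cells with a UMI of both genes divided by the product of the single shares, for all 36 pairs in cells thinned to 5000 UMIs, in the Fcmr+/+ (blue) and Fcmr-/- (red) library; bars are exact 95% Clopper-Pearson intervals scaled by that product. Most points lie near 1, with medians of 1.02 and 1.03.

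Around the 9 genes, the rest of the pathway was described with 4 lists. Among the kinase and STAT genes, Stat2, which acts in type I signaling, was higher past the limit in Fcmr-/- cells, with 15.9 CPM in Fcmr+/+ and 29.1 CPM in Fcmr-/- cells, 1.83-fold (1.73 to 1.93). Irf9, a DNA-binding factor of the type I response, had 30.4 and 40.7 CPM, 1.34-fold (1.28 to 1.39), and stayed under the limit. Stat3, which acts downstream of gp130 receptors, Stat5a and Stat6 had the 3 lowest ratios of that list, with folds of 0.891 (0.871 to 0.913), 0.909 (0.850 to 0.971) and 1.03 (0.996 to 1.06). Of 15 other brakes, 2 were higher past the limit, Usp18, an inhibitor at the type I receptor, with 14.2 and 25.2 CPM, 1.78-fold (1.68 to 1.88), and Ptpn6, a phosphatase, with 118 and 185 CPM, 1.56-fold (1.53 to 1.60). Cish, a SOCS relative, was next with 15.2 and 20.5 CPM, and Sh2b3, Socs6 and Socs7 were at the low end with folds of 0.802, 0.843 and 0.872.

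Of 13 other cytokine receptor genes, 2 were higher and 1 lower past the limit. Il2rg, the common γ chain, had 32.8 and 64.2 CPM, 1.96-fold (1.89 to 2.03), and Csf3r, the G-CSF receptor, had 15.7 and 24.1 CPM, 1.54-fold (1.45 to 1.62). Csf2rb2 was next with 34.3 and 45.1 CPM, and reads may be split between it and its near-identical neighbor Csf2rb. Lifr, the LIF receptor, had 23.1 and 15.7 CPM, a fold of 0.678 (0.640 to 0.718), and Il6ra and Il10ra followed with folds of 0.772 and 0.944. Of 15 ligand genes only 6 were over 5 CPM, and 3 of these were lower past the limit in Fcmr-/- cells. They were Il10 with 116 and 49.6 CPM, 0.426-fold (0.414 to 0.439), Ifnb1, a type I interferon, with 10.3 and 3.97 CPM, 0.385-fold (0.347 to 0.428), and Il6 with 12.4 and 8.28 CPM. The other 3 genes over 5 CPM had folds of 1.22 for Osm, 0.843 for Lif and 0.721 for Csf3. The interferon-γ gene Ifng had 1 UMI in Fcmr+/+ and 41 UMIs in Fcmr-/- cells, beside the T and NK transcripts given above. Ifnb1 transcripts and the type I response genes differed in opposite directions, since the latter summed to 2703 CPM in Fcmr+/+ and 3557 CPM in Fcmr-/- cells.

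Over the 20 groups of cells formed by cluster and library, the genes with the profile most like each member were named from 5411 candidates. These correlations describe 20 points that share libraries and depth. Socs1 was most like the type I response genes Isg15, Gm4955 and Rsad2 (Pearson r 0.947, 0.928 and 0.921), and Socs3 was most like Bcl10, Cdkn1a and Slfn2 (0.944, 0.928 and 0.915). Ifnar1 was most like the chemokine receptor gene Ccr1, Nfil3 and Chil3 (0.935, 0.919 and 0.918), and Ifngr1 like Susd3, Emb and B4galnt1 (0.895, 0.837 and 0.832). Jak2 went with Ifitm3, Mxd1 and Med13l (0.927, 0.922 and 0.921), and Tyk2 with Irak4, Cmtm6 and Sgk3 (0.893, 0.869 and 0.865). Ifnar2 went with Ubb, Arid5b and Rps27rt (0.913, 0.909 and 0.906), Ifngr2 with Ddhd1, Dcaf11 and Itgax (0.805, 0.788 and 0.745), and Jak1 with Kpna4, Rbm6 and Birc6 (0.816, 0.809 and 0.809). Among the members themselves the closest pair was Ifnar1 and Jak2 (0.852), which belong to different receptors, and the most opposed was Ifngr2 and Socs3 (-0.414).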

How the data were processed

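For both libraries the authors deposited unnormalized UMI counts, made with CellRanger from reads mapped to GRCm38. The submitters' processing notes also name Seurat 2.1.0. As in the study's methods, cells with 200 to 7000 genes and at most 30% mitochondrial UMIs were kept, which removed 40 Fcmr+/+ and 18 Fcmr-/- cells, and genes were used for clustering if seen in at least 3 cells. Of symbols shared by several identifiers, the one with the most UMIs was used. No doublet caller was run. The 9 genes, the lists and the alternatives were chosen with earlier results of these data known.

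UMIs were summed over a group of cells and given as CPM, with exact Poisson intervals at 95%. The exact conditional binomial interval was used for ratios and the Clopper-Pearson interval for shares of cells. No test was made, since each genotype had 1 library. The log2 ratio had 1 CPM added, and genes needed 5 CPM in either group to be counted. Clusters came from Seurat 5.3.0 in R 4.3.3, which scaled each cell to 10000 UMIs before the log, took as variable the genes whose dispersion exceeded 0.5 at a log mean between 0.0125 and 3, and used 10 components, 30 neighbors and a resolution of 0.8, and without the 9 genes. Scores and shares used cells thinned to 5000 UMIs. All other steps used Python 3.11.15, numpy 2.4.6 and scipy 1.17.1. Gene positions came from GENCODE (GRCm38) and promoters from RefSeq, where all 9 symbols matched. Mx2 and Trac were not found in the gene table, and the values of some list genes are not reported here. Named genes were the members, the 3 highest and 3 lowest ratios of each pathway list over 5 CPM, the 3 genes most like each member, and 5 leading genes per cluster, those with the highest log2 ratio to all other cells at 50 CPM or more. Examples from the score and marker lists are given to say what a list holds. The sums, ratios and intervals were tested on simulated data.

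The alternatives covered scaling, averaging, the pseudocount, filters on genes and cells, depth, cell makeup, other cell types, the score groups, the clustering and the depth of co-expression.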

Additional observations from a re-analysis of the deposited data

Results flagged for a closer look

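Socs1 was the one gene of the 9 that was past the fold limit upward in some clusters and downward in another. Of all genes over 5 CPM, 12.3% were past the limit in cluster 1, 6.24% in cluster 5 and 19.6% in cluster 8, in either direction. On the log2 scale, Fcmr-/- cells differed from Fcmr+/+ cells in Socs1 by 1.03 in cluster 1 and 1.41 in cluster 5 but -0.52 in cluster 8. The difference between clusters was not tested, since each rests on 1 library per genotype, and the Fcmr+/+ value in cluster 1 rests on 18 UMIs.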

How the results depend on the processing

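No paired analysis was possible because each genotype had 1 library. Of the 9 genes, 1 was past the fold limit between the libraries. It was Socs1, which was past it in 12 of 15 alternatives that gave a new ratio. A minimum of 20 CPM removed Socs1 before the count, so the count of 0 there says nothing about its ratio. None passed as the mean of within-cluster ratios (0), at a fold limit of 1 (0), at a common makeup of clusters (0) or without clusters 1 and 5 (0), and 2 passed at a limit of 0.25. The last 2 of those without a call, and the removal of cells with T and NK transcripts, of cluster 1 and of shared barcodes, were chosen after seeing the data. Direction was the same for every gene in all 15. For the score groups, counts are summed over both libraries. With 4 groups of cells in place of 3 they were 4 for type I, 4 for type II and 8 for hypoxia, against 2, 2 and 5. With scores as a share of all UMIs the type II count was 4, and with limits set within each library the type I count was 4. A limit of 0.25 gave 6, 5, 9, 8 and 9 for type I, type II, hypoxia, early and inflammatory genes, and a limit of 1 gave 1, 2 and 2 for the last 3, against 5, 4 and 4. The share of all genes past the limit was not computed for these score settings, nor for other fold limits between the libraries. The counts under those settings are therefore no result about the members. The share of pairs of gene and cluster past the limit, 7.78%, stayed between 7.41% and 10% with the members among the variable genes, at resolutions of 0.4 and 1.2, and without cells with T and NK transcripts. Co-expression depended on depth. Pairs with an interval above 1 numbered 3 in Fcmr+/+ and 2 in Fcmr-/- cells at 10000 UMIs, where shallower cells drop out, and 25 and 28 without thinning, in place of 5 and 6; without thinning 0 pairs lay below 1 in Fcmr-/- cells. Under these settings the receptor pairs had ratios of 1.00 to 1.04. The cause of these shifts was not tested. Genes with few UMIs per cell, Socs1, Tyk2 and Jak2, limit what single cells can show.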

Other observations

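Cells in which a member was seen, at 5000 UMIs per cell, also differed in other gene lists. In Fcmr+/+ cells with an Ifngr1 UMI, MHC class II genes summed to 7570 CPM against 4391 CPM in cells without one, 1.72-fold (1.71 to 1.74), and in Fcmr-/- cells the fold was 1.29 (1.28 to 1.3). Monocyte markers were 1.52-fold (1.47 to 1.56) and 1.59-fold (1.55 to 1.63) higher in cells with an Ifnar1 UMI, and 1.8-fold (1.7 to 1.91) and 1.51-fold (1.45 to 1.58) higher in cells with a Socs1 UMI, in the Fcmr+/+ and Fcmr-/- library. Cell cycle genes were lower in cells with a Socs3 UMI, by a fold of 0.724 (0.700 to 0.748) and 0.630 (0.608 to 0.652). Beside Socs1 they were lower in Fcmr+/+ cells, by a fold of 0.674 (0.610 to 0.742), and had a fold of 1.06 (0.989 to 1.13) in Fcmr-/- cells. That difference between the libraries was not tested, and these are descriptions of cells from 1 library each. Other members shared these traits. Beside Socs3, MHC class II genes were 1.48- and 1.41-fold and monocyte markers 1.49- and 1.51-fold higher. Beside Ifnar1, cell cycle genes had folds of 0.782 and 0.714. Jak1 differed, with 0.914 and 0.893 for MHC class II, 0.921 and 1.01 for monocyte and 1.01 and 1.04 for cell cycle genes. Genes outside the members were not compared in this way.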
